A study of Homo sapiens with 12 samples.

Results

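The response of SK-MEL-5 melanoma cells to interferon gamma (IFN-γ) was read from 6 of the 12 RNA libraries of the study, 3 of untreated cells and 3 of treated cells, chosen by the labelled cell line and treatment. SK-MEL-5 is an established human melanoma line, labelled wild type, that was grown in MEM with fetal bovine serum. Cells were seeded in triplicate wells of 6-well plates. The treated wells received IFN-γ at 150 ng/mL from seeding and were collected after 24 h, and the untreated wells received none. The other 6 libraries hold MALME-3M, another melanoma line, with and without IFN-γ at 200 ng/mL for 24 h, in IMDM with more serum. They entered here only as part of the common model and for the difference between the lines, in which line, dose and medium cannot be told apart. Nothing in the labels says that the wells of a group came from separate cultures, so each p-value speaks of the spread among the libraries, and that spread may be only technical.

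IFN-γ is the cytokine by which activated T cells and NK cells act on tumour cells. It binds a receptor made of IFNGR1 and IFNGR2, whose kinases JAK1 and JAK2 phosphorylate STAT factors. STAT dimers bind the DNA element called GAS, and the factors made first, IRF1 among them, then act through a second element, the ISRE, on genes of antigen presentation and antiviral defence. In melanoma the pathway is known for raising MHC molecules and the checkpoint ligand PD-L1, and for loss of its components in tumours that escape T cells.

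Each count table held 44700 gene rows, of which 15810 passed the filter on low counts and were tested. Levels are given as counts per 1e6 gene counts (CPM), in the order of replicates 1, 2 and 3. Log2 fold changes of treated over untreated cells are given ± SE. This SE was back-calculated from the fit of all 12 libraries, as the absolute log2 fold change divided by the square root of edgeR's F. After a CPM value, ± gives the SD of the 3 libraries. A gene is called when the adjusted p of edgeR's quasi-likelihood test is below 0.05, and it is said to rise or fall only then. The 6 libraries held 15514412 to 22921184 gene counts. Pairs of replicates were not copies of each other, since chi-square per gene lay between 6.19 and 11.95 for each pair. The 8 melanocytic markers checked were all above 1 CPM and summed to 6084 to 6426 CPM in untreated and 5743 to 5892 CPM in treated libraries. Each marker of T cells, macrophages, B cells, endothelial cells, leukocytes and epithelial cells was below 1 CPM, and CD3D, CD2, CD163, AIF1, MS4A1, CDH5 and TEK had no count in any of the 6 libraries. Fibroblast markers summed to 162 to 189 CPM before and 130 to 135 CPM after treatment, most of it from LUM, the 1 of the 5 that was called lower (161 to 125 CPM), and KRT10 made up most of 16.7 to 21.3 CPM of keratinocyte markers. In RNA of whole wells, fewer cells of a type and less RNA per cell cannot be told apart.

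IFN-γ raised few genes strongly and lowered many slightly. Of the genes tested, 946 rose (5.98%) and 1114 fell (7.05%). The median log2 fold change was 0.61 among the rises, -0.28 among the falls and -0.03 over all genes tested. Rises of at least 2-fold numbered 314 and falls of that size 44, and 988 of the falls were under 1.5-fold. Small falls depended on the fit: among called genes 45.9% were higher, against 56.8% (1062 higher, 809 lower) when the SK-MEL-5 libraries were fitted alone and 57.6% (1086 and 801) when genes needed 1 CPM in 3 libraries. Falls numbered 655 without untreated replicate 2, 665 without treated replicate 3 and 181 with estimated transcript counts, and falls of at least 2-fold 22 with DESeq2, 25 with transcript counts, 28 without untreated replicate 2 and 29 without treated replicate 3. Sums of estimated transcript counts left out assembled transcripts, which held 44.8% to 48.9% of the estimated counts in the 6 libraries.

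Among genes split into 4 equal groups by untreated level, in the lowest group, up to 1.88 CPM, 181 genes rose with a median log2 fold change of 2.22, and 26 fell. In the group with the highest level, above 57.4 CPM, 256 rose with a median of 0.32 and 669 fell with a median of -0.24. These medians are a description with no test: the untreated level is part of the fold and a gene with few counts is called only at a large fold. In the plot of change against the mean level of all 6 libraries, rises reach farther from 0 than falls, and most falls form a thin band close to 0. The CPM gained by all rising genes summed to 41080, and 23 genes made up 50% of it. WARS, the cytosolic tryptophanyl-tRNA synthetase, alone held 14.1% of the gain. The gene with the next largest share, 11%, was an assembled locus without a symbol, MSTRG.46287, whose CPM spread from 6740 to 11789 among treated libraries against 3470.5 to 4785 in untreated ones. The 281 genes with a symbol that rose at least 2-fold took 0.613% to 0.619% of all counts in the untreated libraries and 2.65% to 2.68% in the treated ones.

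**Figure D1:**
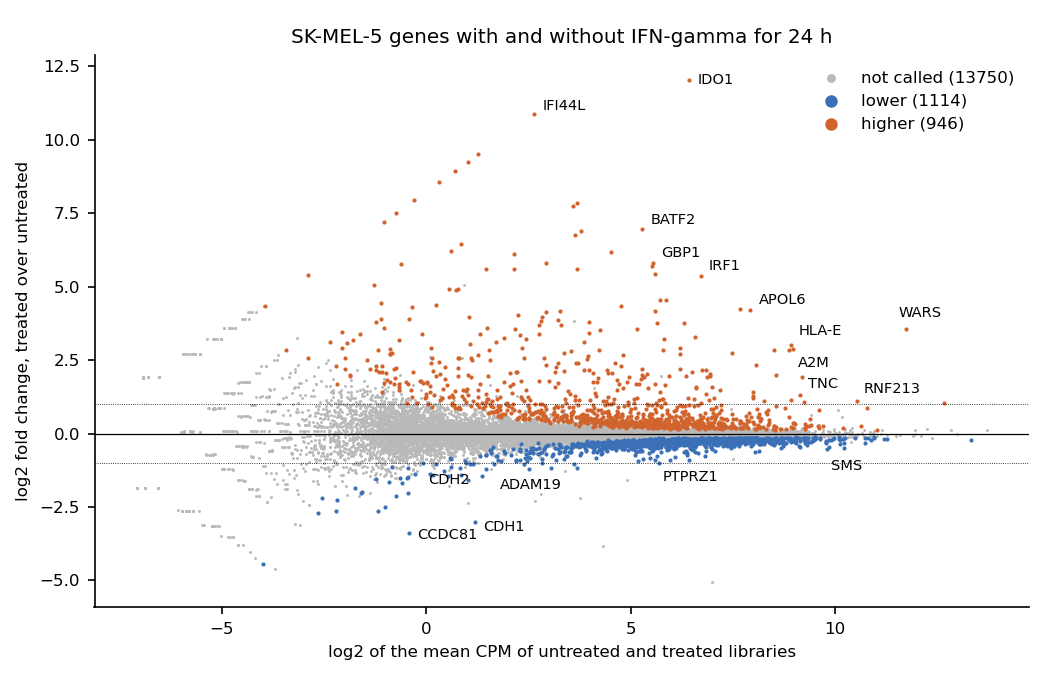
Log2 fold change of treated over untreated SK-MEL-5 cells against the log2 of the mean CPM of the 6 libraries, 1 point per tested gene that had a count in SK-MEL-5. Orange points are the 946 genes called higher and blue points the 1114 called lower, and dotted lines mark 2-fold changes. Rises reach farther from 0 than falls, and the falls of highly expressed genes are small.

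Promoters of strongly rising genes often held one or the other interferon element. RefSeq promoter windows of 250 bases before to 50 after a start were matched to 10901 of the 14581 tested genes with a symbol, and were searched on both strands for TTCNNNGAA (GAS, which reads the same on both strands) and for GAAANNGAA or TTCNNTTTC (the core of the ISRE). Of 130 windows of genes that rose at least 4-fold, 23.8% held a GAS match, 43.8% an ISRE core match, 54.6% either and 13.1% both, against 0.761% with both among all windows. The share with either was 30.5% of 131 windows of genes that rose 2- to 4-fold, 20.0% of 795 windows of smaller rises, 11.2% of 1485 windows of genes that fell and 12.3% of all 16036 windows. A match describes letters in the window and is not a bound site. The shares are drawn in the plot of motif matches by change.

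**Figure D2:**
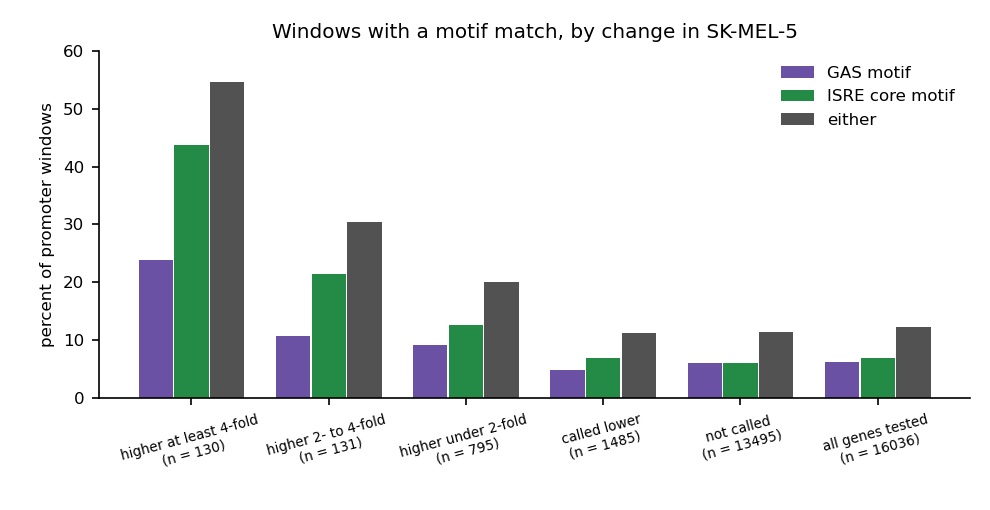
Percent of RefSeq promoter windows with a GAS match, an ISRE core match or either, by how the gene changed in SK-MEL-5, with n windows under each group. The share with either match was 54.6% for rises of at least 4-fold and 12.3% over all genes tested.

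Matches upstream of the start are shown for genes of the main groups below, to show the letters that were counted, and not every match of these genes is shown. They are written from 5′ to 3′ on the strand of the gene, with the matches in capitals, from RefSeq on GRCh38.p14. IRF1 and ICAM1 show a GAS match alone, at chr5:132490879-132490907 (minus strand) and chr19:10271035-10271063 (plus strand). GBP1 at chr1:89065316-89065344 (minus strand) and IFIT3 at chr10:89332469-89332497 (plus strand) show an ISRE core match. TAP1 at chr6:32853816-32853844 (minus strand) and B2M at chr15:44711366-44711394 (plus strand) hold 2 ISRE core matches that overlap each other. BST2 at chr19:17405742-17405770 (minus strand) holds a GAS match that overlaps the first of 2 ISRE core matches, which overlap each other. Not shown are a GAS match of TAP1 at chr6:32852932-32852960, ahead of another start, and a further GAS match of BST2 at chr19:17405670-17405698. Other ISRE core matches of IFIT3 are not shown either. WARS has a GAS match at chr14:100375471-100375499 and an ISRE core match at chr14:100375384-100375412 (both minus strand), ahead of the start at position 100375347. In GENCODE 29 the shown stretches of IRF1, B2M and BST2 lie outside exons, that of TAP1 touches a coding exon and the others touch a UTR of some transcript.
IRF1 GAS: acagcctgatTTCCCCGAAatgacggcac
ICAM1 GAS: ggcgcgaggtTTCCGGGAAagcagcaccg
GBP1 ISRE core: acgaagtactTTCAGTTTCatattactct
IFIT3 ISRE core: ttccatcagtTTCACTTTCctttcccctt
TAP1 ISRE core: ggccgctTTCGATTTCGCTTTCccctaaa
B2M ISRE core: actctaaGAAAAGGAAACTGAAaacggga
BST2 GAS and ISRE core: tcctTTCTGGGAAACTGAAACTGAAaacc
WARS GAS: gctcaagtgtTTCTGAGAAtctgggtgat
WARS ISRE core: tttcagaaggGAAACTGAAagaaagaggg

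Receptor and kinase genes changed in part, and most STAT genes rose. Of 10 tested receptor chains and JAK kinases 3 rose and 1 fell, with a median log2 fold change of 0.06. Over all genes tested 5.98% rose and 7.05% fell. IFNGR1, the ligand-binding chain, was at 23.4, 22.4 and 23.5 CPM in untreated and 24.0, 21.2 and 21.5 CPM in treated libraries, which overlap (-0.05 ± 0.075, edgeR adjusted p = 0.735). IFNGR2, the signalling chain, went from 93.2, 95.9 and 84.8 to 81.2, 78.2 and 65.8 CPM and was called lower (-0.28 ± 0.077, edgeR adjusted p = 0.0196), but not without treated replicate 3 or untreated replicate 1 or 2 (-0.20, -0.27 and -0.24). JAK2 went from 39.3, 37.6 and 42.2 to 59.5, 52.4 and 49.4 CPM, without overlap (0.44 ± 0.079, edgeR adjusted p = 6.82e-04), although estimated transcript counts summed to JAK2 gave -0.57 and no call. The chain that rose most was IFNAR2, part of the receptor of type I interferons, at 31.2 to 33.6 CPM before and 60.6 to 71.1 CPM after treatment (1.02 ± 0.065). JAK1 was not called, at 99 to 109 CPM and 91.5 to 94.7 CPM.

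Of 7 STAT genes 5 rose and none fell, with a median of 0.67. STAT2, which acts with IRF9 in a complex that binds the ISRE, went from 53.6, 45.5 and 46.3 to 191, 191 and 205 CPM (2.02 ± 0.064, edgeR adjusted p = 1.22e-14). STAT3, the main factor of IL-6 signalling, went from 217, 221 and 213 to 350, 353 and 334 CPM (0.67 ± 0.047). Both had treated libraries well above untreated ones. STAT6 rose from 51.7 to 55.7 CPM to 61.0 to 64.0 CPM, and STAT4 rose within levels below 1 CPM (2.00 ± 0.63). Neither call was firm: STAT6 lost it without treated replicate 2 or 3 or untreated replicate 1 or 3 (0.21 to 0.23), and STAT4 without any library but untreated replicate 1 (1.58 to 2.15). STAT5A and STAT5B were not called.

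Interferon regulatory factors differed in starting level. Of 9 tested, 6 rose and none fell, with a median of 1.92, or 0.58 when genes with 3 or fewer counts in a group were set to their bound. IRF1 stood at 5.91, 4.76 and 4.46 CPM before and 204, 206 and 202 CPM after treatment. It overlaps C5orf56 on the other strand, which also rose, and without a known strand setting reads of the overlap cannot be told apart. IRF2, the usual antagonist of IRF1, already stood at 54.4, 57.4 and 55.1 CPM and went to 86.2, 79.9 and 83.2 CPM (0.58 ± 0.061, edgeR adjusted p = 1.14e-06). IRF4, a lineage factor of melanocytes and lymphocytes, went from 111, 97.5 and 102 to 148, 149 and 159 CPM (0.55 ± 0.059, edgeR adjusted p = 1.68e-06). IRF7, a driver of type I interferon production, stayed low at 3.33, 3.07 and 5.28 CPM after treatment against 0.0636, 0.312 and 0.304 CPM before (3.97 ± 0.43). IRF9 rose from 0.258 ± 0.16 to 1.89 ± 0.20 CPM. In neither IRF7 nor IRF9 did the groups overlap.

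Among 16 other factors of the response 8 rose and 1 fell (median 0.52). BATF2, a basic leucine zipper factor, had 0.318, 0.757 and 0.659 CPM before and 75.1, 81.1 and 74.1 CPM after treatment (6.98 ± 0.15, edgeR adjusted p = 3.77e-17). NLRC5, the activator of MHC class I genes, went from 4.83, 4.19 and 6.39 to 91.8, 88.8 and 94.4 CPM (4.16 ± 0.13, edgeR adjusted p = 1.26e-14). CIITA, which does the same for class II, went from 2.99, 2.18 and 2.59 to 51.8, 45.7 and 57.3 CPM (4.33 ± 0.14). Treated libraries thus held both class activators at a level well above the untreated range. BCL6, a repressor, rose 1.67 ± 0.12 on the log2 scale, ETV6 0.83 ± 0.11, BATF3 1.39 ± 0.15 and SP140L 2.06 ± 0.10. JUN, a subunit of AP-1, fell from 39.9, 46.5 and 40.8 to 29.6, 35.9 and 29.4 CPM, a call that was lost without treated replicate 1 or 3 or untreated replicate 2 (-0.38, -0.38 and -0.35).

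Feedback inhibitors of JAK-STAT signalling moved both ways, with 5 of 17 higher, 2 lower and a median of -0.01. SOCS1, the inhibitor that binds JAK2, stayed near the limit of the counts at 0.700, 1.02 and 0.862 CPM before and 1.96, 2.21 and 3.00 CPM after treatment (1.44 ± 0.39, edgeR adjusted p = 0.0198). Without treated replicate 3 or untreated replicate 1 or 3 SOCS1 was not called (1.25 to 1.43). It lies inside RMI2, which also rose, and without a known strand setting their reads cannot be told apart. SOCS3 was at 35.6, 34.3 and 30.8 CPM and then 69.0, 84.7 and 73.6 CPM (1.18 ± 0.079, edgeR adjusted p = 1.83e-09). USP18, which removes ISG15 and blocks the type I receptor, went from 7.50, 9.04 and 8.52 to 33.6, 38.2 and 33.0 CPM (2.06 ± 0.10). SOCS2, which restrains growth hormone signalling, went the other way, from 11.5, 11.9 and 11.2 to 5.53, 5.38 and 4.49 CPM. The phosphatase PTPN1 rose from 197 to 213 CPM to 262 to 275 CPM, and PTPN11 fell from 392 to 441 CPM to 344 to 348 CPM. PIAS2, PIAS3, PIAS4, SOCS4 to SOCS7 and CISH were not called.

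**Figure D3:**
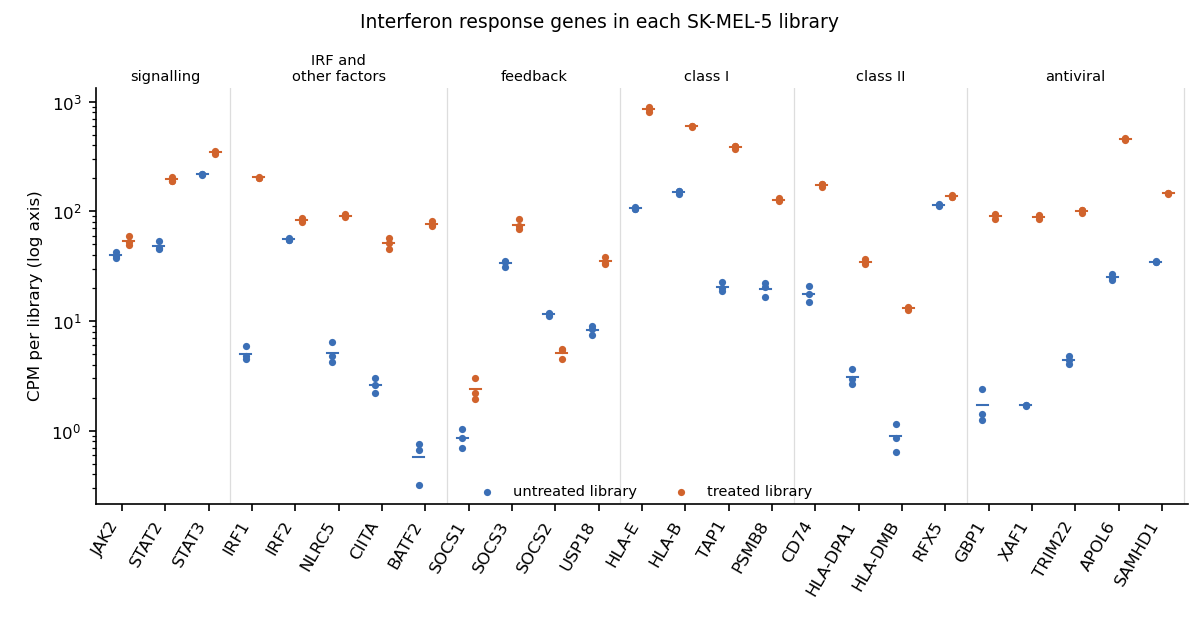
CPM of interferon response genes in each library on a log axis, grouped by role, with untreated libraries in blue, treated libraries in orange and a bar at each group mean. Replicates lie close together, and in all 25 genes but SOCS2 the treated libraries lie above the untreated ones.

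All 7 MHC class I chains rose and none fell, with a median of 1.92. HLA-E, the ligand of the inhibitory NK receptor NKG2A, rose most, from 111, 105 and 104 to 814, 895 and 857 CPM (3.00 ± 0.050, edgeR adjusted p = 6.97e-19). HLA-B went from 154, 153 and 143 to 597, 595 and 599 CPM (1.99 ± 0.045, edgeR adjusted p = 5.18e-17). HLA-C rose from 130 to 146 CPM to 353 to 381 CPM and HLA-F from 13.9 to 18.7 CPM to 64.7 to 71.5 CPM. HLA-G was called higher at 3.62 to 6.06 CPM, close to the threshold (edgeR adjusted p = 0.0483), and leaving out any library but treated replicate 1 ended the call (log2 fold change of 0.83 to 1.42). HLA genes share sequence and vary between people, so reads may be split between them, and the low count of HLA-G is uncertain for that reason.

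Genes of peptide transport and the immunoproteasome rose too. Of 10 genes of peptide transport, trimming and loading 7 rose and none fell (median 0.99), and of 6 genes of the immunoproteasome and its activator 5 rose and none fell (median 2.15). TAP1, a subunit of the peptide transporter, went from 22.7, 20.0 and 18.7 to 393, 399 and 374 CPM (4.25 ± 0.083), and its partner TAP2 from 8.65, 7.35 and 7.4 to 31.1, 30.3 and 25.3 CPM (1.90 ± 0.12). PSMB8, a catalytic subunit of the immunoproteasome, went from 22.2, 20.5 and 16.6 to 125, 127 and 133 CPM (2.70 ± 0.080, edgeR adjusted p = 4.05e-15). PSMB10 rose from 0.891 to 1.27 CPM to 9.26 to 10.1 CPM, and the activator subunits PSME1 and PSME2 by 1.47 ± 0.060 and 1.60 ± 0.074 on the log2 scale. The peptide-trimming enzymes ERAP1 and ERAP2 rose by 1.04 ± 0.061 and 1.76 ± 0.12. In contrast, PSMB5 and PSMB6, whose places PSMB8 and PSMB9 take, were not called, at -0.06 ± 0.076 and -0.01 ± 0.059. Of the 25 constitutive proteasome genes 5 rose and 2 fell (median -0.06). The chaperone CALR rose slightly, from 1408 to 1514 CPM to 1656 to 1795 CPM (0.24 ± 0.048), and CANX, PDIA3 and POMP were not called, but PDIA3 passed without untreated replicate 1 and with the filter of 1 CPM in 3 libraries (0.14 in both, edgeR adjusted p = 0.0476 and 0.0448).

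MHC class II genes rose from low levels, 13 of 15 tested, with none lower and a median of 2.91. CD74, the invariant chain, was the most counted, at 17.5, 20.8 and 14.9 CPM before and 166, 176 and 177 CPM after treatment (3.29 ± 0.086, edgeR adjusted p = 5.86e-16). HLA-DPA1 went from 3.63, 2.67 and 2.94 to 33.3, 36.8 and 34.5 CPM (3.52 ± 0.10) and HLA-DPB1 from 0.509, 0.935 and 1.52 to 18.2, 18.0 and 19.1 CPM (4.18 ± 0.21). HLA-DMB, a chain of the peptide exchange factor, went from 0.636, 1.16 and 0.862 to 12.5, 13.5 and 13.1 CPM (3.83 ± 0.20). In each of these the lowest treated library was at least several times the highest untreated one. HLA-DRB1 reached 11.8 to 13.3 CPM and HLA-DRB5 2.08 to 2.64 CPM, and these copies share sequence. The protease CTSS, which trims the invariant chain, rose from 0.551 ± 0.20 to 8.98 ± 0.44 CPM. RFX5, a subunit of the complex on which CIITA acts, rose by only 0.27 ± 0.056 from a level of 111 to 117 CPM, and its partners RFXANK and RFXAP were not called. HLA-DOB and IFI30 had too few counts to be tested.

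Antiviral genes rose broadly, with exceptions among the MX GTPases. Of 18 tested genes of the IFIT, IFITM and IFI families 17 rose and none fell (median 2.97), and of 5 genes of the OAS list 4 rose (median 3.69). Of 8 guanylate-binding proteins and MX GTPases 5 rose and none fell (median 3.77, or 3.04 with genes at their bound). XAF1, which promotes apoptosis, went from 1.72, 1.69 and 1.72 to 92.3, 85.9 and 90.3 CPM (5.70 ± 0.11, edgeR adjusted p = 4.40e-18). GBP1, a GTPase that attacks vacuoles of pathogens, went from 2.42, 1.25 and 1.42 to 85.8, 94.8 and 93.5 CPM (5.80 ± 0.15, edgeR adjusted p = 6.68e-16). IFIT3, which binds viral RNA with its partners, went from 11.3, 10.6 and 10.6 to 140, 154 and 148 CPM (3.76 ± 0.078). In all 3 the treated libraries were more than 10 times the untreated ones. MX1, a GTPase that blocks influenza virus, was not called, at 2.04, 3.12 and 4.21 CPM before and 4.16, 4.04 and 4.62 CPM after treatment (0.43 ± 0.18, edgeR adjusted p = 0.136), but passed without untreated replicate 3 (0.69, edgeR adjusted p = 0.0129). MX2 had 0 counts before and 7 after treatment and was not called, but it passed without treated replicate 1, with no filter on low counts and in the robust fit (edgeR adjusted p = 0.0459, 0.0270 and 0.0349).

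Several of these genes had no count in any untreated library. With the floor of 3 counts over the group, IFITM1, which blocks viral entry, was at least 62.8-fold higher at 4.06, 2.96 and 2.74 CPM. EPSTI1 was at least 77.7-fold higher at 4.89, 3.28 and 3.91 CPM, and the C1 inhibitor SERPING1 at least 93.6-fold higher at 4.45, 4.63 and 5.47 CPM. APOL4 was at least 48.2-fold higher, and the peptide transporter SLC15A3 at least 31.6-fold higher. Others had 1 or 2 counts before treatment. CXCL11, a ligand of CXCR3, had 2 counts before and 162 after, which is 86.3 times as many per gene count (95% exact Clopper-Pearson limits of 23.5 and 718 cover counting error alone), and the phospholipase PLA2G2A a ratio of 74.5 (12.9 to 2986). All untreated counts of both genes came from untreated replicate 3, and without it the fitted log2 fold change, which is no bound, went from 6.20 to 8.82 for CXCL11 and from 5.76 to 7.60 for PLA2G2A. Without untreated replicate 2 that of CXCL11 was 5.59. CAND2 had a ratio of 103 (28.1 to 855) and overlaps RPL32 on the other strand, so its reads cannot be told from those of RPL32.

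Sensors of nucleic acids and the ISG15 system rose as well. Of 12 genes of double-stranded RNA sensing 8 rose and 1 fell (median 0.75), and of 11 genes of DNA sensing and the inflammasome 6 rose and none fell (median 1.10). IFIH1, the sensor MDA5, went from 6.49, 8.10 and 7.91 to 50.04, 45.5 and 50.1 CPM (2.69 ± 0.13, edgeR adjusted p = 1.01e-11). EIF2AK2, the kinase PKR, went from 152, 162 and 142 to 355, 357 and 352 CPM (1.22 ± 0.049). SAMHD1, which degrades nucleotides, went from 35.6, 34.7 and 34.3 to 148, 148 and 145 CPM (2.08 ± 0.063, edgeR adjusted p = 6.26e-15). MAVS and TBK1, through which the sensors signal, were not called. AIM2, a sensor of cytosolic DNA, rose from 2.54 to 3.38 CPM to 24.1 to 27.2 CPM. MB21D1, which encodes the DNA sensor cGAS, and TMEM173, which encodes STING, were below 0.5 CPM in all 6 libraries and were not called, so both stayed near the limit of the counts while other sensors were well counted.

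Of 11 genes of ISG15 conjugation and ubiquitin ligases 10 rose and none fell (median 1.48). The modifier ISG15 rose from 0.382, 1.29 and 1.12 to 12.4, 13.2 and 12.1 CPM (3.69 ± 0.28), its activating enzyme UBA7 from 0.636, 0.846 and 0.913 to 14.3, 14.1 and 14.7 CPM (4.14 ± 0.14), and the conjugating enzyme UBE2L6 from 7.57, 6.77 and 6.39 to 87.2, 93.8 and 98.2 CPM (3.76 ± 0.079). The ligase HERC5 was not called (0.39 ± 0.16), while HERC6 rose by 1.48 ± 0.17. RNF213, a giant ubiquitin ligase, had the largest gain in CPM after WARS among genes with a symbol, from 947, 933 and 955 to 2038, 2001 and 2026.5 CPM (1.10 ± 0.041, edgeR adjusted p = 1.61e-13). Of 12 PARP genes 5 rose, with PARP14 from 88.2 to 89.9 CPM to 627 to 649 CPM, and PARP1 and PARP2 were not called. All 9 tested TRIM genes rose (median 0.97), led by TRIM22 from 4.77, 4.05 and 4.36 to 103, 96.9 and 103 CPM (4.53 ± 0.092). TRIM5 overlaps TRIM22 on the other strand. Of 7 nuclear body genes 4 rose (median 1.40), PML by 1.40 ± 0.086 and SP100 by 1.60 ± 0.054, and DAXX and ATRX were not called. Of 10 APOBEC3, Schlafen and SAMD9 genes 8 rose (median 1.11), with APOBEC3G at 5.88 to 7.19 CPM before and 14.4 to 18.5 CPM after treatment and APOBEC3B not called.

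Secreted and surface proteins changed unevenly. Of 6 apolipoproteins L 5 rose (median 4.81). APOL6 was the most counted, from 23.6, 27.1 and 24.5 to 453, 462 and 465 CPM (4.19 ± 0.065, edgeR adjusted p = 2.56e-19). Of 10 complement genes 6 rose (median 2.23), with C1S, a protease of the first component, from 7.50, 11 and 8.16 to 37.8, 39.1 and 35.8 CPM (2.06 ± 0.11), and CD46, CD55 and CD59, which protect cells from complement, were not called. A2M, a secreted protease inhibitor, rose from 112.2, 115 and 119 to 837, 804 and 833 CPM (2.84 ± 0.045), and TNC, the matrix protein tenascin C, from 318, 333 and 313 to 809, 806 and 805 CPM (1.33 ± 0.049). These 2 were among the largest gains in CPM. Of 9 chemokine genes 5 rose and 1 fell (median 0.46), but CXCL9, CXCL10 and CXCL11 stayed low, with 0.783 to 1.51, 1.17 to 1.24 and 2.01 to 3.77 CPM in treated libraries. CXCL10 and CXCL11 lie inside ART3, which also rose, and reads of the pair cannot be told from those of ART3.

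Of 15 cytokine and receptor genes 5 rose (median 1.06). IL18BP, the decoy of IL-18, went from 12.8, 13.4 and 15.4 to 62.3, 62.6 and 67.9 CPM (2.21 ± 0.088), CSF1 rose from 4.71 to 6.54 CPM to 24.5 to 27.1 CPM, and IL15 reached 5.09, 2.75 and 3.39 CPM (3.05 ± 0.39). Of 13 checkpoint genes 7 rose and 1 fell (median 0.76). CD274, the gene of PD-L1, was at 0.827, 0.802 and 0.507 CPM before and 7.73, 9.26 and 8.08 CPM after treatment (3.55 ± 0.21, edgeR adjusted p = 2.17e-10), while PDCD1LG2, the gene of PD-L2, stayed below 1 CPM in each library and was not called, except without treated replicate 2 (edgeR adjusted p = 0.0461). The butyrophilins BTN3A1, BTN3A2 and BTN3A3, ligands in gamma delta T cell recognition, rose by 1.22 ± 0.070, 0.76 ± 0.062 and 1.74 ± 0.075 on the log2 scale. CD47, the signal against phagocytosis, rose from 83.4 to 92.7 CPM to 108 to 119 CPM. TNFRSF14, the ligand of BTLA, fell from 215 to 234 CPM to 182 to 209 CPM, and lost the call without treated replicate 2 or 3 or untreated replicate 1 or 2 (-0.21 to -0.15). Of 13 NK-cell ligands and adhesion molecules 2 rose and 1 fell (median -0.15). ICAM1 went from 48.3, 46.6 and 45.9 to 310, 316 and 308 CPM (2.73 ± 0.051), CEACAM1 rose from 100 to 115 CPM to 184 to 194 CPM, and MCAM, an adhesion molecule of melanoma, fell from 223, 211 and 215 to 173, 181 and 174 CPM. The NKG2D ligand MICA was not called.

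Cell death genes rose in part, 8 of 23 with none lower and a median of 0.12. CASP8, the initiator of death receptor signalling, went from 36.9, 35.7 and 32.5 to 60.6, 64.4 and 60.4 CPM (0.82 ± 0.058, edgeR adjusted p = 3.82e-09). The BH3-only genes PMAIP1 and BCL2L11 rose by 1.18 ± 0.096 and 0.56 ± 0.10. MLKL rose from 15.2, 16.8 and 17.8 to 49.99, 51.95 and 59.0 CPM, but RIPK3, the kinase that activates it, had no count in any SK-MEL-5 library. BAX, BAK1, BCL2 and TNFRSF10B were not called. Of 12 NF-kappaB genes 4 rose and 1 fell (median 0.20), with NFKB1 at 0.01 ± 0.063 and not called.

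Metabolic changes were few. Of 11 genes of tryptophan and NAD metabolism 3 rose. WARS went from 531, 557 and 527 to 6391, 6372 and 6197 CPM. NAMPT, the enzyme that salvages NAD, went from 221, 221 and 223 to 331, 334 and 325 CPM (0.57 ± 0.040, edgeR adjusted p = 3.39e-09), and NNMT, which methylates nicotinamide, from 9.16, 7.44 and 10.8 to 48.7, 45.5 and 40.2 CPM (2.30 ± 0.12). KYNU, the kynureninase, was called with DESeq2 (adjusted p = 0.0333) but not in the edgeR fit, at 176 to 189 CPM before and 189 to 212 CPM after treatment. LAP3, an aminopeptidase, rose by 2.17 ± 0.063 and the mitochondrial dismutase SOD2 by 0.84 ± 0.050. GCH1, the first enzyme of biopterin synthesis, was not called (-0.09 ± 0.25). Of 15 lysosomal genes 5 rose, with the endopeptidase LGMN from 53.8, 46.7 and 44.9 to 190, 184 and 182 CPM (1.94 ± 0.064). Hexokinases rose, HK1 from 102 to 109 CPM to 154 to 168 CPM and HK2 from 157 to 162 CPM to 220 to 227 CPM, but the other glycolysis genes did not rise and 1 of the 20, the glucose transporter SLC2A1, fell, but was not called in the fit of the SK-MEL-5 libraries alone (-0.38, edgeR adjusted p = 0.0501), with DESeq2 (-0.38, DESeq2 adjusted p = 0.0728) or with estimated transcript counts (-0.46, edgeR adjusted p = 0.636).

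In WARS and ADAR the estimated counts of annotated transcripts were spread over their starts differently before and after treatment. Estimated transcript counts, grouped by start after their values had been seen, are given with no test. Transcripts of WARS that start from 100376251 to 100376805 on chromosome 14 held 78.4%, 80.0% and 78.8% of the estimated counts of its transcripts in untreated libraries and 46.3%, 48.3% and 43.4% in treated ones. Those that start from 100375347 to 100375644, around the window with the GAS and ISRE core matches shown above, held 17.8%, 15.2% and 14.8% before and 28.4%, 28.7% and 32.7% after treatment, and went from 28.03 ± 0.95 to 259 ± 12 CPM, 9.24-fold. Most of that came from WARS-201, at 205 ± 9.1 CPM after treatment, whose start at 100375608 lies upstream of both matches. The matches thus lie ahead of the start at 100375347 but not of that of WARS-201. The starts from 100376251 to 100376805 went from 140 ± 16 to 400 ± 52 CPM, 2.86-fold. The 4 other transcripts, with starts from 100342534 to 100374949 inside the gene, went from 8.92 ± 2.9 to 209 ± 28 CPM, 23.4-fold, and their share went from 3.83% to 6.38% before treatment to between 23.03% and 25.2% after it. Most of this came from WARS-220, annotated as a retained intron, at 170 ± 22 CPM after treatment. All 25 tested annotated transcripts of WARS summed to 177 ± 18 CPM before and 869 ± 84 CPM after treatment, against gene counts of 538 ± 16 and 6320 ± 107 CPM. The shares thus speak only of these annotated transcripts and not of all WARS counts. In ADAR, the enzyme that edits RNA, the 2 transcripts that start from 154608170 to 154608186 on chromosome 1 went from 226 ± 9.99 to 440 ± 11 CPM, and the 3 that start farther upstream, from 154627583 to 154627968, from 107 ± 19 to 74.8 ± 8.0 CPM. The share of the nearer starts was 65.2% to 72.4% before and 83.7% to 86.8% after treatment. Estimates of single transcripts carry ambiguity between transcripts of a gene: in a fit over 103171 transcripts 0.375% were called. WARS-203 with an upstream start rose (1.47 ± 0.11, edgeR adjusted p = 2.25e-04), as did WARS-227 and WARS-224 with starts in the downstream group (3.74 ± 0.49 and 3.53 ± 0.51, edgeR adjusted p = 0.0109 and 0.0192). WARS-201, the most counted of that group, did not pass (3.42 ± 0.78, edgeR adjusted p = 0.181) but passed in the fit of the SK-MEL-5 libraries alone (3.43, edgeR adjusted p = 9.72e-04). WARS-203 passed there too (edgeR adjusted p = 0.0319), but WARS-227 and WARS-224 did not (edgeR adjusted p = 0.0988 and 0.131). ADAR-208 with a nearer start rose (0.74 ± 0.11, edgeR adjusted p = 0.0217), but was not called in SK-MEL-5 alone (edgeR adjusted p = 0.178). ADAR-202 with a nearer start and ADAR-201 with an upstream start were not called (edgeR adjusted p = 0.0865 and 0.722).

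Some rising genes were neighbours on a chromosome. Among 254 genes with a position that rose at least 2-fold, 60 formed 14 runs of 3 or more with starts at most 200 kb apart. This is a description with no test. No gene that fell lay inside a run, but few tested genes other than the members lay there, so this says little. Positions are those of GENCODE 29 on GRCh38. The longest run held 15 genes of the MHC class II region at chr6:32439842-33087201, from HLA-DRA to HLA-DPB1, with TAP1, TAP2, PSMB8 and PSMB9 between them. Other runs were GBP3, GBP1, GBP2, GBP4 and GBP5 at chr1:89006666-89272804, IFIT2, IFIT3, IFIT1 and IFIT5 at chr10:89283694-89421001, OAS1, OAS3 and OAS2 at chr12:112906777-113011723 and APOL3, APOL4, APOL2 and APOL1 at chr22:36140330-36267530. A run on chromosome 15 joined PATL2, B2M and TRIM69, and one on chromosome 14 joined PSME1, PSME2, IRF9 and REC8, a meiotic cohesin that rose from 0.757 to 1.02 CPM to 2.93 to 3.81 CPM. On chromosome 19 CA11, a carbonic anhydrase-related protein, PLEKHA4 and NUCB1, a Golgi protein, formed a run with 3 tested neighbours that were not called, with NUCB1 from 145 to 155 CPM to 352 to 370 CPM. Members of a run include related copies and genes that overlap, such as PARP9 with DTX3L and PSMB9 with TAP1, so they are not independent.

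Falls were small in most genes and even between replicates. Of the 44 genes that fell at least 2-fold, CDH2, the gene of N-cadherin, went from 4.32, 3.79 and 3.30 to 1.42, 1.29 and 1.43 CPM (-1.45 ± 0.14, edgeR adjusted p = 5.20e-07). With estimated counts of annotated transcripts alone the log2 fold change of CDH2 was -6.51 and was not called (edgeR adjusted p = 0.0865). ADAM19, a membrane protease, fell from 9.48, 6.99 and 7.30 to 3.42, 3.55 and 3.32 CPM, and COL9A3, a collagen chain, from 4.58, 3.79 and 3.30 to 1.81, 1.72 and 1.37 CPM (-1.22 ± 0.17). Untreated and treated libraries did not overlap in these. Among falls without overlap at 1 CPM or more, the size of the largest depended on untreated replicate 3: CDH1, the gene of E-cadherin, was at 1.27, 1.34 and 9.53 CPM before and 0.342, 0.538 and 0.651 CPM after treatment, and CCDC81 at 0.254, 0.267 and 3.60 CPM before. The log2 fold change of CDH1 was -3.03 with untreated replicate 3 and -1.39, still called, without it (edgeR adjusted p = 9.32e-04). CDH1 was not called in the robust fit or with estimated transcript counts (edgeR adjusted p = 0.103 and 0.0763). The log2 fold change of CCDC81 was -3.38 with untreated replicate 3 and -1.004, not called, without it. CCDC81 also lost its call without treated replicate 2 or 3 (-3.28 and -2.91) and reached -4.42 without treated replicate 1. It was not called in the robust fit (edgeR adjusted p = 0.115) or with DESeq2 (DESeq2 adjusted p = 0.168). Among the rises UGT2A1 was as uneven, at 58.4, 4.15 and 12.05 CPM after treatment (6.76, or 5.11 without treated replicate 1). UGT2A1 was not called in the robust fit (edgeR adjusted p = 0.0505). Of the 314 rises of at least 2-fold 7, and of the 44 falls 3, had a replicate more than 4 times another in the higher group.

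Genes of the largest losses in CPM were highly expressed. SMS, the spermine synthase, went from 1041, 1134 and 998 to 715, 757 and 721 CPM (-0.53 ± 0.048, edgeR adjusted p = 1.28e-07), and DST, a cytoskeletal linker, from 1020, 1076 and 1097 to 819, 760 and 744 CPM (-0.46 ± 0.045). ZC3H13, a subunit of the RNA methylation complex, fell from 1219 to 1503.5 CPM to 975 to 1003 CPM. The chaperone HSP90AA1 was called lower although its groups overlap, at 9727, 12135 and 10953 CPM before and 9810, 9544 and 9002 CPM after treatment (-0.21 ± 0.062), and it was not called without replicate 2 or 3 of either group (-0.22 to -0.13). HSPA8, YWHAZ, SPTBN1 and MYO10 fell by less than 0.35 on the log2 scale.

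A few pigment genes fell slightly, and the regulators MITF and SOX10 were not called. Of 14 pigmentation and melanosome genes 5 fell and none rose, with a median of -0.09. GPR143, a melanosomal receptor, went from 76.3, 69.6 and 71.8 to 59.5, 57.3 and 61.8 CPM (-0.29 ± 0.057, edgeR adjusted p = 0.00201), and the transporter SLC24A5 from 96.3, 87.2 and 79.6 to 68.9, 69.3 and 74.2 CPM (-0.31 ± 0.069). DCT, an enzyme of melanin synthesis, just passed, from 2467, 2486 and 2470 to 2236, 2113 and 2201 CPM (-0.18 ± 0.059, edgeR adjusted p = 0.0496), and was not called when any 1 of the 6 libraries was left out (-0.20 to -0.16). TYR, TYRP1, PMEL and MLANA were not called. MITF stood at 626, 614 and 562 CPM before and 606, 597 and 611 CPM after treatment, and SOX10 at 255 to 283 and 254 to 278 CPM, both overlapping. EDNRB, the endothelin receptor of melanocytes, fell from 468, 508 and 473 to 356, 364 and 364 CPM (-0.42 ± 0.057), and RXRG and S100B also fell. TFAP2A, a neural crest factor, rose from 248, 240 and 236 to 327, 330 and 359 CPM (0.49 ± 0.046, edgeR adjusted p = 2.36e-07). TFAP2A and TNC, the latter by 1.33 ± 0.049, were the 2 that rose of 19 melanocyte regulators and dedifferentiation markers, and EDNRB, RXRG and S100B the 3 that fell (median 0.00). NGFR, AXL, SOX9 and WNT5A of the same list were not called.

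**Figure D4:**
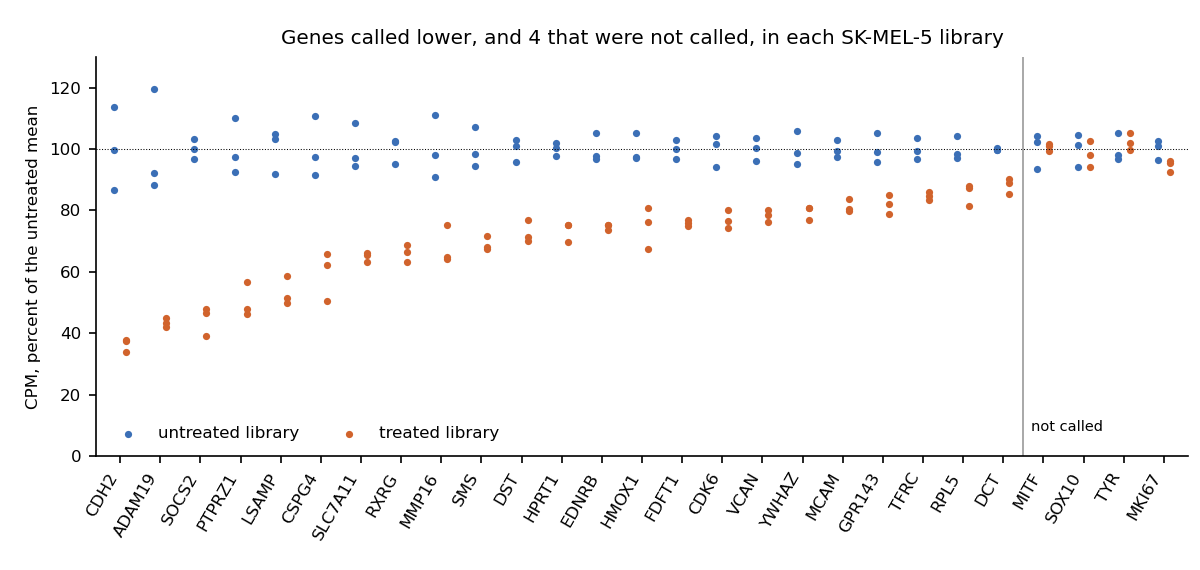
CPM in each library as a percent of the untreated mean for genes called lower, in order of size, and for 4 genes that were not called (MITF, SOX10, TYR, MKI67). Blue points are untreated and orange points treated libraries, and the dotted line marks the untreated mean. Untreated and treated points do not overlap in the genes called lower and overlap or lie close together in the other 4.

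Genes of growth changed little. Of 20 S phase genes 2 fell (median -0.05), and of 20 G2 and M phase genes 2 fell (median -0.04), with none higher in either. Over all genes tested 5.98% rose and 7.05% fell. MKI67 was at 1187, 1266 and 1243 CPM before and 1174, 1139 and 1183 CPM after treatment, and CDKN1A, the CDK inhibitor p21, at 38.4 to 40.1 and 35.9 to 40.9 CPM. Neither was called. CCND1, the gene of cyclin D1, rose from 249, 243 and 228 to 405, 435 and 413 CPM (0.80 ± 0.043, edgeR adjusted p = 5.39e-11), while CDK6, its kinase partner, fell from 191, 172 and 186 to 136, 140 and 147 CPM (-0.38 ± 0.052). Of 16 G1 cyclins, CDKs and inhibitors 2 rose and 3 fell, of 19 MYC and ribosome biogenesis genes 1 rose and 3 fell, and of 15 genes of ATF4 and the unfolded protein response 5 rose and 1 fell (median 0.12). Of 15 MAPK output genes 4 fell and none rose, among them SPRY2 and SPRY4, inhibitors of receptor tyrosine kinase signalling, at -0.27 ± 0.068 and -0.28 ± 0.065. Both calls could be lost by leaving out 1 library, at a similar size: SPRY2 was not called without replicate 2 of either group, nor SPRY4 without treated replicate 3 (-0.24 each). Of 15 p53 targets 1 rose and 1 fell, close to the shares over all genes tested. FAS, a death receptor, rose (0.60 ± 0.15, but 0.48 and not called without untreated replicate 1), and ZMAT3 fell from 150 to 153 CPM to 102 to 108 CPM.

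Matrix, lipid and iron genes had more falls than rises. Of 24 matrix and protease genes 7 fell and 1 rose (median -0.04), with VCAN from 1198, 1290 and 1249 to 999.8, 979 and 951 CPM (-0.35 ± 0.061), MMP16 from 37.1 to 45.3 CPM to 26.2 to 30.7 CPM and CSPG4, a melanoma proteoglycan, from 13.3, 12.5 and 15.1 to 8.46, 6.89 and 8.99 CPM (-0.75 ± 0.092). Of 12 genes of cystine import, iron and ferroptosis 5 fell and 1 rose (median -0.14). SLC7A11, the cystine importer, went from 63.1, 70.4 and 61.4 to 43.1, 41.1 and 42.5 CPM (-0.62 ± 0.079, edgeR adjusted p = 1.51e-05), while its partner SLC3A2 rose from 206 to 215 CPM to 236 to 258 CPM. HMOX1, a heme oxygenase, and TFRC, the transferrin receptor, fell by 0.42 and 0.24 on the log2 scale. Of 19 cholesterol and fatty acid genes 5 fell and 1 rose (median -0.14), with FDFT1 from 155 to 165 CPM to 120 to 123 CPM and SCD, the desaturase, higher at 570 to 589 CPM against 440 to 505 CPM.

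Some genes often used as references fell too. Of 22 cytosolic ribosomal proteins 7 fell and none rose (median -0.11), and of 14 housekeeping genes 5 fell and none rose, HPRT1 most, from 51.2, 50.3 and 49.0 to 34.9, 37.7 and 37.7 CPM (-0.45 ± 0.068, edgeR adjusted p = 1.15e-04). ACTB and GAPDH were not called. None of the 13 mitochondrially encoded genes was called (edgeR's quasi-likelihood test), and they took 3.41% to 4.44% of gene counts before treatment and 3.63% to 4.2% after it. Of 21 nuclear respiratory chain genes 3 fell and 1 rose. The plot of called genes by list sets these shares against those of all genes tested.

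**Figure D5:**
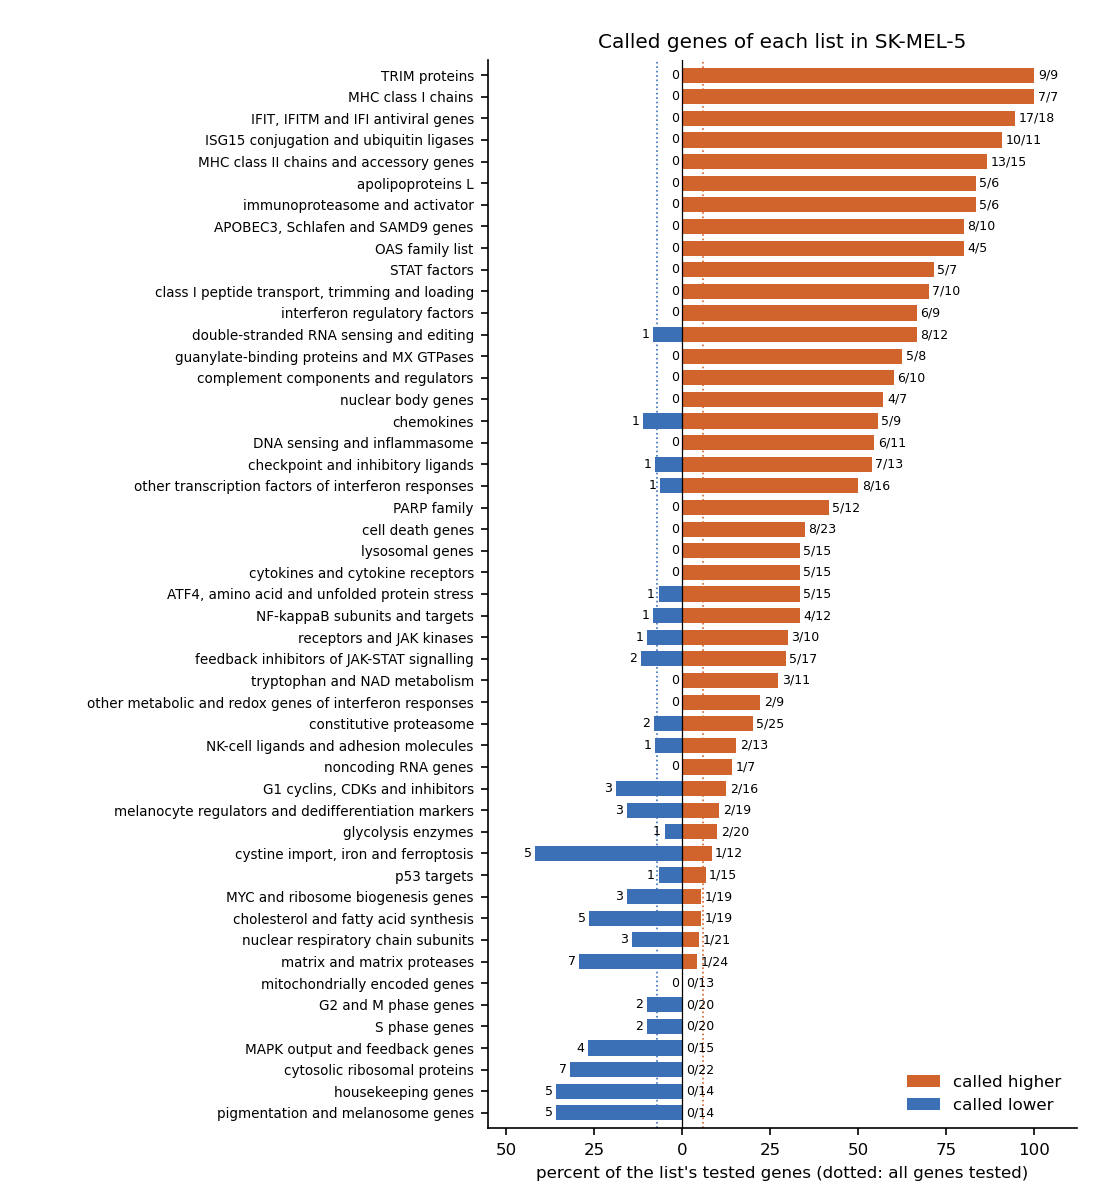
Percent of the tested genes of each list called higher (orange, right) or lower (blue, left) in SK-MEL-5, with counts of called and tested genes at the bars. Dotted lines mark the shares of all genes tested, 5.98% higher and 7.05% lower. Lists of interferon signalling, presentation and antiviral defence lie at the top, and pigment, housekeeping and ribosomal protein genes at the bottom.

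The response differed between the lines for 705 genes (4.46% of those tested, edgeR test of the difference of the log2 fold changes). Of the genes that rose in SK-MEL-5, 166 rose less or fell in MALME-3M and 65 rose more there. BST2, which tethers virions to the cell, rose in SK-MEL-5 from 0.318, 0.178 and 0.203 to 27.0, 27.9 and 27.5 CPM, and its log2 fold change was 4.66 lower in MALME-3M. For HLA-DRA the difference was in the other direction, 7.58 on the log2 scale from a change of 3.42 ± 0.15 in SK-MEL-5.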

How the data were processed

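RNA of 12 wells was sequenced as total RNA libraries, and 6 of SK-MEL-5 are described. The deposited gene tables hold whole-number counts that the authors made with HTSeq, and the deposited transcript tables hold estimated counts and TPM values made with kallisto. The roles are read from the files, and the tools (cutadapt, STAR, SAMtools, kallisto and HTSeq, build hg38) are named in the submitters' processing notes. The tool versions and strand setting were not given in the sources used here. Some named genes not marked above also overlap a tested gene on the other strand. Examples are ERAP1 with CAST, and IFIT1, IFIT2 and IFIT3 with LIPA. TPM was not used in any test. Each SK-MEL-5 table also counted 7.47 to 12.2 reads without a unique place and 0.533 to 0.850 reads outside genes per gene count, and ambiguous reads amounted to 4.19% to 4.37% of gene counts. These rows stayed out, and genes with near-identical copies may be undercounted.

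All 12 libraries entered 1 edgeR 4.0.16 fit (R 4.3.3, limma 3.58.1), with TMM scaling, filterByExpr at a minimum count of 10, 1 mean per group, 8 residual degrees of freedom and Benjamini-Hochberg adjustment over 15810 genes. Fold changes contrast the 3 treated with the 3 untreated SK-MEL-5 libraries, and the difference between lines was an interaction. Transcripts were tested on rounded estimated counts. The common biological coefficient of variation was 0.0955. Alternatives were DESeq2 1.42.0, other scalings, filters and fits, and leaving out each library. The procedure was tested on simulated data.

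The 49 gene lists hold 711 genes, 658 of them tested, and 7 symbols were not matched. Lists, members and the rule for named genes were chosen with earlier results of these data known. The rule took the 15 largest rises and falls without overlap at 1 CPM or more, the 10 largest gains and losses in CPM, the first 2 members and up to 4 called members of each list, genes switched on, and members of runs. Other genes were named after their values had been seen. A few members of the lists are counted but not reported here by name. Floors of 3 counts cover counting error only.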

Additional observations from a re-analysis of the deposited data

Results flagged for a closer look

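The log2 fold change differed between the lines for 93 of the 242 genes named (edgeR's test of the difference, adjusted p below 0.05). Over all 15810 genes tested, 705 differed (4.46%). Genes were named partly for the size or call of their change in these same data, so a higher share among them says little. Values are the change in MALME-3M minus the change in SK-MEL-5 on the log2 scale, and line, dose and medium cannot be told apart.

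Antiviral genes mostly had the larger change in SK-MEL-5. The difference was -4.66 for BST2, -3.05 for IFIT1, -1.21 for IFIT2, -0.75 for IFIT3, -3.14 for OAS2, -2.66 for OAS1, -1.64 for OAS3, -1.97 for XAF1 and -1.16 for DDX60. For the sensors and effectors it was -0.79 for IFIH1, -0.68 for EIF2AK2, -0.95 for SAMHD1, -0.42 for SAMD9, -1.997 for GBP3, -1.91 for TRIM22 and -0.58 for TRIM69. In the ISG15 and PARP groups it was -1.94 for UBA7, -0.99 for UBE2L6, -1.62 for USP18, -1.20 for HERC6, -0.21 for RNF213, -0.85 for PARP14 and -0.38 for DTX3L. Apolipoproteins L differed by -2.45 (APOL3), -2.39 (APOL1), -1.21 (APOL6) and -0.54 (APOL2), and nuclear body genes by -1.37 (SP140L) and -0.34 (SP100). Exceptions in the other direction were MX1 at 1.85, GBP2 at 2.44 and AIM2 at 2.99.

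MHC class II genes had the larger change in MALME-3M, by 8.20 for HLA-DRB1, 8.10 for HLA-DRB5, 7.58 for HLA-DRA, 4.54 for HLA-DPB1, 3.23 for HLA-DPA1, 2.03 for CIITA, 1.32 for CD74 and 0.70 for RFX5. HLA-DR genes vary between people and share sequence, and how far this bears on the 3 largest values was not tested. Class I genes went both ways, with 1.13 for HLA-B, 0.41 for B2M, 0.36 for HLA-C, -0.32 for HLA-E, -0.41 for TAP1, -0.84 for PSMB8 and -0.86 for PSMB9.

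Among signalling genes and factors the difference was 1.08 for IRF1, 3.34 for BATF3, 0.50 for STAT3, 0.75 for SOCS3, 0.61 for JUN, -0.59 for IFNAR2 and -0.36 for PTPN1. Among secreted and surface proteins it was 4.80 for CXCL9, 2.35 for ART3, 2.68 for C1S, 1.55 for A2M, 0.55 for IL18BP, 0.91 for CD47, 0.73 for CEACAM1, 0.38 for TNFRSF14, -0.97 for CD274 and -0.32 for CD59. In metabolism and cell death it was 0.60 for WARS, 1.98 for NNMT, 1.97 for GCH1, -0.45 for SOD2, -1.02 for SLC7A11, -0.37 for CASP8 and -0.50 for PMAIP1.

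Among adhesion, matrix and melanocyte genes the difference was 1.41 for CDH2, 2.80 for CDH1, 0.87 for COL9A3, 0.41 for CSPG4, 0.53 for S100B, 0.56 for RXRG and -0.48 for ABCB5. The value was 4.52 for CCDC81 and -8.89 for UGT2A1. Without untreated replicate 3 the change in SK-MEL-5 was -1.39, still called, for CDH1 and -1.004, not called, for CCDC81, and without treated replicate 1 it was 5.11 and still called for UGT2A1. In the robust fit CDH1, CCDC81 and UGT2A1 were not called in SK-MEL-5. Growth and cytoskeleton genes gave -0.70 for CCND1, -0.24 for MKI67, 0.36 for SPRY4, 0.41 for DST, 0.25 for CTNNA1 and 0.21 for ACTB. The remaining values were -6.62 for CAND2, -4.65 for SLC15A3, -1.53 for PLEKHA4, -1.21 for MSTRG.46287, -0.40 for NUCB1, 2.64 for LRP2 and 3.16 for LRRTM2. In untreated SK-MEL-5, SLC15A3 had 0 counts and CAND2 had 2, so the sizes of both differences are uncertain. For SLC15A3 the counts bound the rise in SK-MEL-5 only at 31.6-fold or more.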

How the results depend on the processing

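With estimated transcript counts summed to genes, 390 genes were higher and 181 lower, 178 and 25 of them at least 2-fold. These sums took in annotated transcripts alone, while assembled transcripts held 44.8% to 48.9% of the estimated counts of the SK-MEL-5 libraries. How far this bears on the genes that changed with transcript counts was not tested. DESeq2 called 22 falls of at least 2-fold. Across fits that left out 1 SK-MEL-5 library, calls ranged from 709 to 809 higher and from 655 to 938 lower, and at least 2-fold from 270 to 311 higher and from 28 to 37 lower. Falls were 655 without untreated replicate 2 and 665 without treated replicate 3, and falls of at least 2-fold were 28 and 29 without the same 2 libraries. Among called genes 54.8% were higher with DESeq2 and 68.3% with transcript counts, against 45.9%. No gene was called in opposite directions by any alternative. Fitted on the SK-MEL-5 libraries alone, 113 transcripts were higher and 1 lower, against 316 and 71. With the 250 bases before the start alone, either motif was in 9.49% of windows of genes that fell and 10.7% of all. Of the 242 genes named, 184 kept their direction and call wherever tested. Estimated transcript counts turned the direction of JAK2 (-0.57) and APOL2 (-0.37), neither called there, and ended the call of 46 others. No paired analysis was possible because the labels give no replicate numbers. The cause of these changes was not tested.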

Other observations

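Genes outside the lists, picked after their values had been seen, also moved. IL12RB2, a chain of the IL-12 receptor, rose from 23.5, 21.9 and 23.3 to 75.1, 73.6 and 71.7 CPM (1.68 ± 0.069, edgeR adjusted p = 8.48e-13). FYB, an adaptor known from T cells, rose from 69.0, 77.3 and 77.2 to 164, 165 and 170 CPM (1.16 ± 0.056, edgeR adjusted p = 1.14e-11), while each T cell marker stayed below 1 CPM. LGALS3BP, a secreted glycoprotein, rose from 420, 366 and 373 to 824, 823 and 804 CPM (1.08 ± 0.049, edgeR adjusted p = 4.06e-12). DDX60, a helicase of the RIG-I pathway, rose from 9.67, 12.02 and 10.95 to 104, 100.2 and 103 CPM (3.22 ± 0.080). LRRTM2, a synaptic adhesion protein, rose from 2.35, 1.96 and 2.08 to 26.7, 27.4 and 33.6 CPM, and it lies inside CTNNA1, so reads of the pair cannot be told apart. LRP2, the endocytic receptor megalin, rose from 68.2, 61.5 and 67.2 to 172, 163 and 160 CPM.

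Among the falls outside the lists, PTPRZ1, a receptor phosphatase of glial cells, went from 75.6, 66.9 and 63.6 to 39.0, 31.8 and 32.9 CPM (-0.99 ± 0.086, edgeR adjusted p = 7.08e-08). LSAMP, a neural adhesion protein, went from 65.6, 58.2 and 66.5 to 37.1, 31.7 and 32.6 CPM. KITLG, the ligand of KIT, went from 23.9, 25.2 and 28.4 to 16.8, 18.1 and 16.1 CPM (-0.60, edgeR adjusted p = 1.22e-04). ABCB5, a transporter known from melanoma, went from 53.2, 54.7 and 54.0 to 34.1, 34.5 and 33.6 CPM. Untreated and treated libraries did not overlap in any of these 4 genes.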
